A study of Mus musculus with 2 samples.

Results

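The genes described here encode the amyloid precursor protein, one close relative, and enzymes that cut them. They are App, Aplp2, Bace1, Bace2, Psen2, Ncstn, Aph1a, Psenen and Adam10, and they were taken from the count tables by symbol alone, as 9 of the 33083 listed genes. Each symbol matched 1 row. The rule uses symbols and no measured value, but the genes were chosen with earlier results of these data known. Their levels were compared over every cell class in colon of a transgenic Alzheimer's disease model (AD) and of wild-type mice (WT).

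The series used 10x single-cell RNA sequencing of minced colon digested with trypsin and DNase I, with 1 library from AD mice and 1 from WT mice. The AD mice belong, per the design text, to the line APP/PS1-21, and no transgene is listed for the WT mice. As background, this line carries human amyloid precursor and presenilin transgenes driven by the neuronal Thy1 promoter. The labels used here give no age, strain background or number of animals for either library. Every row of the gene table had a mouse identifier, so no row counted a human transgene, and whether transgene reads were assigned to mouse App was not tested. A single library stands for each genotype, so the variation among animals is not known and the genotypes could not be tested against each other. Each difference is therefore a difference between these 2 libraries, and fewer expressing cells in a class and less RNA per cell cannot be told apart from a summed count alone.

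Amyloid precursor protein is a single-pass membrane protein that proteases cut in competing ways. Adam10 is the main alpha-secretase and cuts within the amyloid beta sequence, whereas the beta-secretase Bace1 cuts at its start. The gamma-secretase complex then cleaves the remaining stub inside the membrane, as it does for Notch receptors. It consists of a presenilin as catalytic subunit, nicastrin (Ncstn), an Aph1 subunit and the presenilin enhancer Psenen. In the gut, App is known from neurons, muscle, epithelium and blood vessels.

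Of 6675 AD and 4146 WT barcodes, 29.2% and 60.4% exceeded the limit of 25% mitochondrial counts. This left 4687 AD cells with 31937713 unique molecular identifiers (UMIs, each standing for 1 captured transcript) and 1546 WT cells with 12354671. Median depth was 3720 UMIs per AD cell and 3714.5 per WT cell. Cells were grouped into clusters without these genes or 88 others of the pathway, and clusters were named "-like" from marker genes. Epithelial-like cells numbered 1477 in AD and 541 in WT, among them a cluster led by Myl7 and Aqp4 that took no class name. Other named classes held 2932 AD and 973 WT cells, and 278 AD and 32 WT cells were placed neither in a class nor among the epithelial-like cells. Classes are compared and ranked among the 10 that reached 50 cells in both libraries. Values of smaller classes, such as smooth-muscle-like, plasma-like, enteric-glia-like and lymphatic-endothelial-like cells, are given as such. The libraries shared 7 barcodes, of which 3 were kept in both. Levels are UMIs summed over a class, divided by all UMIs of that class and scaled to 1000000 (CPM). Parentheses give exact 95% intervals, which cover counting error only.

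App (ENSMUSG00000022892) lies on the minus strand of chromosome 16 at chr16:84949685-85173766, and Aplp2 (ENSMUSG00000031996) on the minus strand of chromosome 9 at chr9:31149557-31211815 (mm10). Both encode type I membrane proteins of the same family, and their products are cut by the same secretases. RefSeq promoter windows (GRCm38.p6) were at hand for 7 of the 9 genes, all but Bace1 and Bace2. The 250 bases upstream of the RefSeq start are shown for App (chr16:85173708-85173957) and Aplp2 (chr9:31211849-31212098), the pair of relatives whose class patterns are compared next. RefSeq starts differ from the gene ends given above. The last bases of the App window, with its GC box, thus lie inside the App gene as placed above, and the Aplp2 window lies outside its gene. Capitals mark GC boxes, searched as GGGCGG or CCGCCC to cover both strands.
App: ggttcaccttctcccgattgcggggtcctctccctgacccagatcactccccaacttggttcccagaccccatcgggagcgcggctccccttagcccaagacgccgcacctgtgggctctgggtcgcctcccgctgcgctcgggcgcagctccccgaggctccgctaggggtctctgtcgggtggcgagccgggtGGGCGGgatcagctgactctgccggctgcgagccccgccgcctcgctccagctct
Aplp2: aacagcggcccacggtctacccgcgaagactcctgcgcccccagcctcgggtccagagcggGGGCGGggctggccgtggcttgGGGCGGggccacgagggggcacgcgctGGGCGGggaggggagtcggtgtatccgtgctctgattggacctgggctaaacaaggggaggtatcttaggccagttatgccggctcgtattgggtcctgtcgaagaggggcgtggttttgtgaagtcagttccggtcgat
The App window held 1 GC box and 23 CG dinucleotides and that of Aplp2 held 3 GC boxes and 22, against a median of 6 CG dinucleotides over all 32851 promoter windows of this length. A GC box was found in 32.7% of all windows and a TATA box (TATAAA or TTTATA) in 12.4%. None of the 9 windows of the 7 genes held a TATA box, and 5 held a GC box. These matches describe the windows and say nothing of which factors bind there.

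Among the 10 compared classes, App was highest in vessel and stromal cells and nearly absent from lymphoid cells in both libraries. Endothelial-like cells had 160 UMIs, or 755 CPM (643 to 882), in AD and 256 UMIs, or 910 CPM (802 to 1029), in WT. Fibroblast-like cells followed with 498 CPM in AD and 550 CPM in WT, and macrophage-like cells with 423 CPM in AD and 404 CPM in WT. Within fibroblast-like cells, the cluster led by Pcolce2, Cilp and Pi16 had 556 CPM in AD and 747 CPM in WT, a ratio of 0.74 (0.66 to 0.85), and the cluster led by Cxcl13, Igfbp3 and Adamdec1 had 423 CPM in AD and 369 CPM in WT, a ratio of 1.15 (0.96 to 1.38). The fibroblast-like clusters thus pointed in different directions, and neither passed 1.5-fold. In smooth-muscle-like cells, with 60 AD and 25 WT cells, App stood at 613 CPM in AD and 653 CPM in WT, and in lymphatic-endothelial-like cells, with 20 AD and 13 WT cells, at 684 CPM in AD and 1000.1 CPM in WT. Among epithelial-like classes, enteroendocrine-like cells, which make gut hormones, stood highest at 300 CPM in AD and 334 CPM in WT. Those led by Chgb and Tph1 had 372 CPM in AD and 362 CPM in WT, and those led by the peptide hormone genes Pyy and Insl5 had 135 CPM in AD and 198 CPM in WT, from 27 and 20 UMIs. Goblet-like cells, the mucus producers, stood at 164 CPM in AD and 156 CPM in WT. Of the 10 classes that reached 50 cells in both libraries, the lowest were B-like cells, at 25.9 CPM in AD and 17.7 CPM in WT, and lymphocyte-like cells, at 19.0 CPM in AD and 13.1 CPM in WT. In WT cells the highest class had 69.4 times the level of the lowest. App was seen in 73.4% of 79 AD and 79.3% of 87 WT endothelial-like cells, against 4.88% of AD and 3.56% of WT B-like cells. Median depth was alike in these 2 classes, at 2027 and 1976 UMIs in AD cells and 2531 and 2518 UMIs in WT cells.

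Aplp2 shared with App the endothelial-like maximum among the 10 compared classes but reached further into lymphoid cells. Endothelial-like cells had 821 CPM in AD and 892 CPM in WT, and fibroblast-like cells 362 CPM in AD and 313 CPM in WT. Lymphocyte-like cells had 231 UMIs in AD, or 191 CPM (167 to 217), and 192 UMIs in WT, or 229 CPM (198 to 264). Among the 10 compared classes of the WT library they stood next after endothelial-like and fibroblast-like cells in Aplp2 and last in App. B-like cells had 77.8 CPM in AD and 106 CPM in WT. The WT maximum of these classes was 8.41 times the minimum. Of the smaller classes, lymphatic-endothelial-like cells had more Aplp2 than any of them, at 1298 CPM (1047 to 1590) in AD and 2175 CPM (1742 to 2683) in WT, and smooth-muscle-like cells had 728 CPM in AD and 602 CPM in WT. Among profiles of 22 class and library pairs, the genes most alike to App by Pearson correlation of log2(CPM + 1) were Wdfy3 (0.96), Gab1 (0.95) and Sash1 (0.94), and those most alike to Aplp2 were Ece1 (0.94), Bmpr2 (0.93) and Ctdsp1 (0.91), out of 5908 genes. Profiles from 1 library share that library, so these values describe likeness only.

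**Figure D1:**
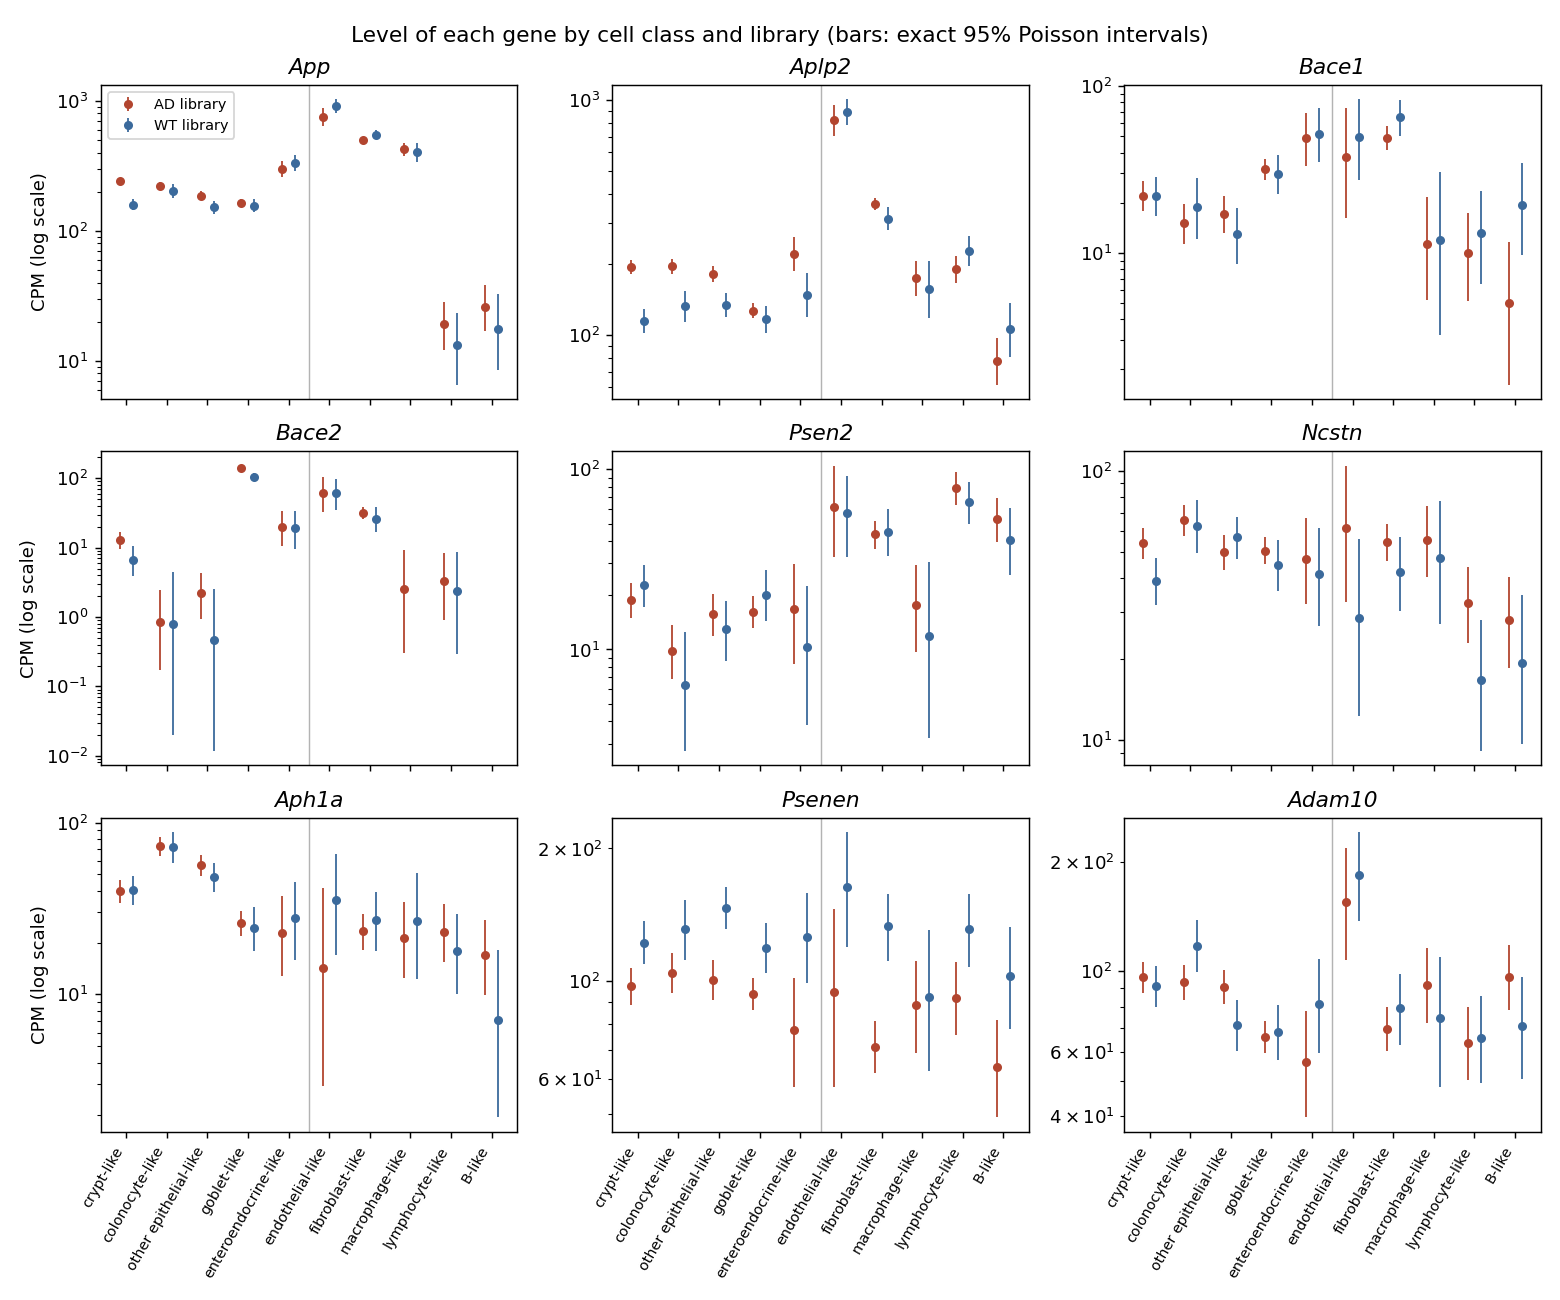
Levels of the 9 genes as CPM (log scale, with a separate scale in each panel) in the 10 classes that reached 50 cells in both libraries, AD left of WT, with exact 95% Poisson intervals; the grey line parts epithelial-like from other classes, and no point is drawn where a library had 0 UMIs. App and Aplp2 peak in endothelial-like cells, Bace2 in goblet-like cells, and Psenen is lower in AD in every class.

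The beta-secretase genes had separate places. Bace1 (chr9:45838580-45864399, plus strand) was highest in muscle, stromal and hormone-producing cells. Smooth-muscle-like cells, with 25 cells in the WT library, had 26 UMIs in AD, or 142 CPM (92.9 to 208), and 9 UMIs in WT, or 76.3 CPM (34.9 to 145), a ratio of 1.86 (0.85 to 4.52). Among the 10 compared classes, fibroblast-like cells had 48.9 CPM in AD and 65.1 CPM in WT, and enteroendocrine-like cells 48.7 CPM in AD and 51.9 CPM in WT. Endothelial-like cells came next, with 8 UMIs in AD, or 37.8 CPM (16.3 to 74.4), and 14 UMIs in WT, or 49.8 CPM (27.2 to 83.5). These intervals overlapped those of fibroblast-like and enteroendocrine-like cells. Goblet-like cells had 31.8 CPM in AD and 29.9 CPM in WT. B-like cells had 5 UMIs in AD and 11 in WT. In the 6 of these 10 classes with at least 30 Bace1 UMIs over both libraries, its ratio of AD over WT lay between 0.75 and 1.32, and the interval included 1 in each. The gene overlaps Rnf214 on the other strand by 975 bases, and whether the authors' counting used strand is not given in the sources used here.

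Bace2 (chr16:97356742-97442936, plus strand), a relative of Bace1 that can cut amyloid precursor protein within the amyloid beta sequence, was in the epithelium mainly a goblet-like cell gene. Goblet-like cells had 837 UMIs in AD, or 143 CPM (133 to 153), and 202 UMIs in WT, or 104 CPM (90.3 to 120). They held 91.4% of all epithelial-like Bace2 UMIs in AD and 87.1% in WT. Their level was 22.0 times (17.5 to 28.1) that of all other epithelial-like cells in AD and 22.9 times (15.5 to 34.8) in WT. The other epithelial-like cells had 79 UMIs in AD and 30 in WT. Colonocyte-like cells, the absorptive surface cells, had 3 UMIs in AD and 1 in WT, although their median depth of 11203 and 11367 UMIs was above or near that of goblet-like cells, at 9062 and 12024 UMIs. At least 1 Bace2 UMI was present in 56.9% of AD and 49.5% of WT goblet-like cells, against 1.08% of AD and 1.23% of WT colonocyte-like cells. With every cell thinned to 1000 UMIs, the goblet-like shares were 13.0% in AD and 14.0% in WT. Outside the epithelium Bace2 was present in endothelial-like cells, at 61.4 CPM in AD and 60.4 CPM in WT, and in fibroblast-like cells, at 31.7 CPM in AD and 26.0 CPM in WT. It had 0 UMIs in 471 AD and 225 WT B-like cells, which allows at most 3.68 CPM in AD and 6.52 CPM in WT.

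Differences between the libraries were called by size, at 1.5-fold or more in either direction with at least 30 UMIs over both libraries. Over all epithelial-like cells Bace2 was the 1 gene of the 9 past this size. It had 916 UMIs in AD, or 50.8 CPM, and 232 UMIs in WT, or 27.2 CPM, a ratio of 1.87 (1.61 to 2.16). Of all 13263 genes tested in these cells 20.4% passed in either direction, and 7.53% were higher in AD. The share of goblet-like cells differed too: they were 33.6% of epithelial-like cells in AD and 20.1% in WT. With the class makeup set equal in both libraries the Bace2 ratio was 1.40, and within goblet-like cells it was 1.37 (1.18 to 1.61), both under the size of 1.5. The plot of where Bace2 UMIs lie shows the goblet-like excess and the makeup side by side.

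**Figure D2:**
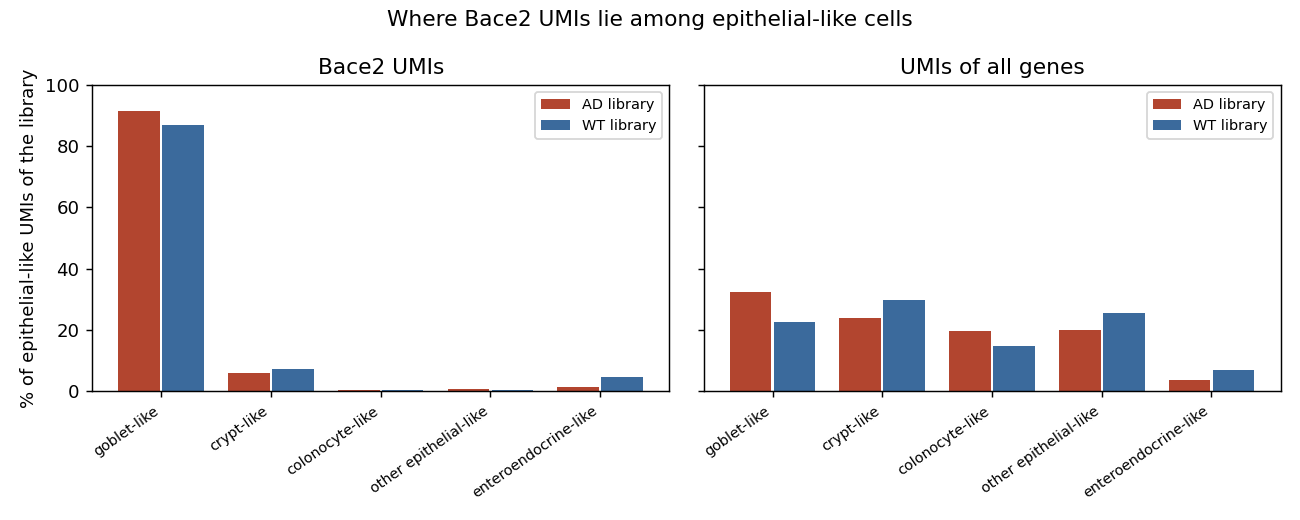
Share of epithelial-like UMIs that fell in each class (percent of the library's total), for Bace2 (left) and for all genes together (right), AD left of WT. Goblet-like cells hold 91.4% of Bace2 UMIs in AD and 87.1% in WT but 32.5% and 22.8% of the UMIs of all genes.

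Within classes, 73 pairs of a gene and a class had enough UMIs, and 8 of them passed the size, 4 higher and 4 lower in AD. That is 11.0%, against 22.6% of all 73340 gene and class pairs. At the mitochondrial limit used here, none of the genes passed in colonocyte-like, goblet-like or macrophage-like cells, nor in the epithelial-like cluster led by Myl7 and Aqp4. Of all genes tested there, 17.9%, 18.8%, 31.7% and 22.7% passed in these 4 groups of cells. Over all kept cells summed, 0 of the 9 passed, against 22.8% of all genes. The null within classes depended on the mitochondrial limit. At a higher limit, given below, Aplp2 and Psen2 passed in colonocyte-like cells. Aplp2 and Adam10 then passed in the epithelial-like cluster led by Aqp4, and no gene passed in goblet-like cells.

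In crypt-like cells, which include stem and dividing cells, 3 of the 9 genes were higher in AD, where 11.7% of 10041 genes were. App had 1036 UMIs in AD, or 240 CPM, and 404 in WT, or 158 CPM, a ratio of 1.51 (1.35 to 1.70). Aplp2 had 842 UMIs in AD, or 195 CPM, and 293 in WT, or 115 CPM, a ratio of 1.70 (1.48 to 1.94). Bace2 had 55 UMIs in AD and 17 in WT, a ratio of 1.91 (1.09 to 3.51). App thus lay just past the size. Different clusters held most crypt-like cells: one led by Fut9 and Htr4 had 310 AD and 76 WT cells, and one led by Itga9 with histone genes among its leading genes had 51 AD and 95 WT cells. Within the first the ratios were 1.35 for App, 1.60 for Aplp2 and 1.81 for Bace2, and within the second 1.12 for App and 1.33 for Aplp2. App was therefore not past 1.5-fold inside either cluster. Median mitochondrial shares of crypt-like cells were 13.6% in AD and 15.8% in WT, and their part in these ratios was not tested. Aplp2 was higher in AD in all 5 epithelial-like classes, with ratios from 1.09 to 1.70 and intervals above 1 in 4 of them. Of 5517 genes tested in all 5 classes, 12.9% were higher in AD in every one. Colonocyte-like and enteroendocrine-like cells lay just under the size for Aplp2, at 1.48 and 1.49. Within enteroendocrine-like cells the cluster led by Chgb and Tph1 had an Aplp2 ratio of 1.84 (1.35 to 2.52), from 118 UMIs in AD and 67 in WT. The cluster led by Pyy and Insl5 had a ratio of 0.74 (0.40 to 1.41), from 28 UMIs in AD and 19 in WT.

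Of the gamma-secretase genes, Psenen and Ncstn were spread more evenly over classes than Psen2 and Aph1a. In WT cells, the highest of the 10 compared classes had 1.78 times the level of the lowest for Psenen and 3.74 times for Ncstn, against 10.2 times for Aph1a and 10.4 times for Psen2. The lowest WT levels of the last pair rest on few UMIs, 4 for Aph1a in B-like cells and 8 for Psen2 in colonocyte-like cells. Psen2 (chr1:180227004-180263438, minus strand), a catalytic subunit, was highest of these 10 classes in lymphocyte-like cells, with 95 UMIs in AD, or 78.6 CPM (63.6 to 96.0), and 55 UMIs in WT, or 65.6 CPM (49.4 to 85.3). B-like cells had 52.9 CPM in AD and 40.7 CPM in WT. Among lymphocyte-like cells, the cluster led by Tnfrsf4 and Foxp3 had 132 CPM in AD and 187 CPM in WT, from 43 and 13 UMIs. The cluster led by Ccl5 and Klrd1 had 48.9 CPM in AD and 51.5 CPM in WT. Colonocyte-like cells were the lowest of the 10 classes, at 9.81 CPM in AD and 6.32 CPM in WT. Within the 10 classes, lymphocyte-like cells thus had the highest Psen2 and the lowest App, but endothelial-like cells, the highest in App, stood second in Psen2, at 61.4 CPM in AD and 56.9 CPM in WT. Plasma-like cells, with 44 cells in the WT library, were low in Psen2 as in App, at 12.9 CPM in AD and 14.3 CPM in WT. Lymphatic-endothelial-like cells had 10 Psen2 UMIs in AD, or 140 CPM (66.9 to 257), and 7 in WT, or 175 CPM (70.4 to 361).

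Ncstn (chr1:172066013-172082795, minus strand), the large glycoprotein subunit, and Aph1a (chr3:95893969-95898288, plus strand), a scaffold subunit, were both highest of the 10 classes in colonocyte-like cells. Ncstn stood there at 65.6 CPM in AD and 62.5 CPM in WT, and its interval overlapped that of the next class in both libraries. Aph1a stood at 72.6 CPM (64.0 to 82.0) in AD and 71.9 CPM (57.9 to 88.3) in WT, and at 26.0 and 24.2 CPM in goblet-like cells. Ncstn was the gene of the 9 past the size in lymphocyte-like cells, with 39 UMIs in AD and 14 in WT, a ratio of 1.93 (1.03 to 3.85), where 15% of 6790 genes were higher in AD. Its ratio lay above 1 in 8 of the 9 classes with enough UMIs, the epithelial-like cluster led by Myl7 and Aqp4 being the exception at 0.88. Its interval was above 1 in only 2 of them. The share of all genes with such a pattern was not counted, so the 8 classes are a description only. Aph1a passed the size in none of its 7 classes. Ncstn shares 267 bases with Copa and Aph1a 521 bases with Car14, each on the other strand.

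Psenen (chr7:30561863-30563627, minus strand), the smallest subunit, which is needed for the complex to mature, was the most even over the 10 classes and lower in AD in all of them. Its level ran from 63.9 to 105 CPM over these classes in AD and from 92.1 to 164 CPM in WT. The ratio lay between 0.53 and 0.96, and its interval lay below 1 in 9 of the 10 classes, all but macrophage-like cells. Among 2134 genes tested in all 10 classes, 3.42% were lower in AD in every one. Fibroblast-like cells had 211 UMIs in AD, or 71.1 CPM (61.9 to 81.4), and 133 UMIs in WT, or 133 CPM (111 to 158), a ratio of 0.53 (0.43 to 0.67). Endothelial-like, enteroendocrine-like and B-like cells also passed the size, at 0.58, 0.61 and 0.62. The genes lower in AD by this size were 8.77% of those tested in fibroblast-like cells, 13.6% in endothelial-like cells, 13.9% in enteroendocrine-like cells and 8.47% in B-like cells. Over all epithelial-like cells Psenen had 97.6 CPM in AD and 129 CPM in WT, a ratio of 0.76 (0.70 to 0.82) that stayed at 0.76 with equal class makeup. Over non-epithelial cells the ratio was 0.73, and 0.72 with equal makeup. Median mitochondrial shares in fibroblast-like cells were 6.99% in AD and 7.16% in WT, and median depths 3028 and 3846 UMIs. Median depth was lower in AD in 9 of the 10 classes, all but crypt-like cells, and its part in the Psenen result was not tested. The gene overlaps U2af1l4 by 327 bases on the other strand, and a part of this overlap in the result was not tested either.

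**Figure D3:**
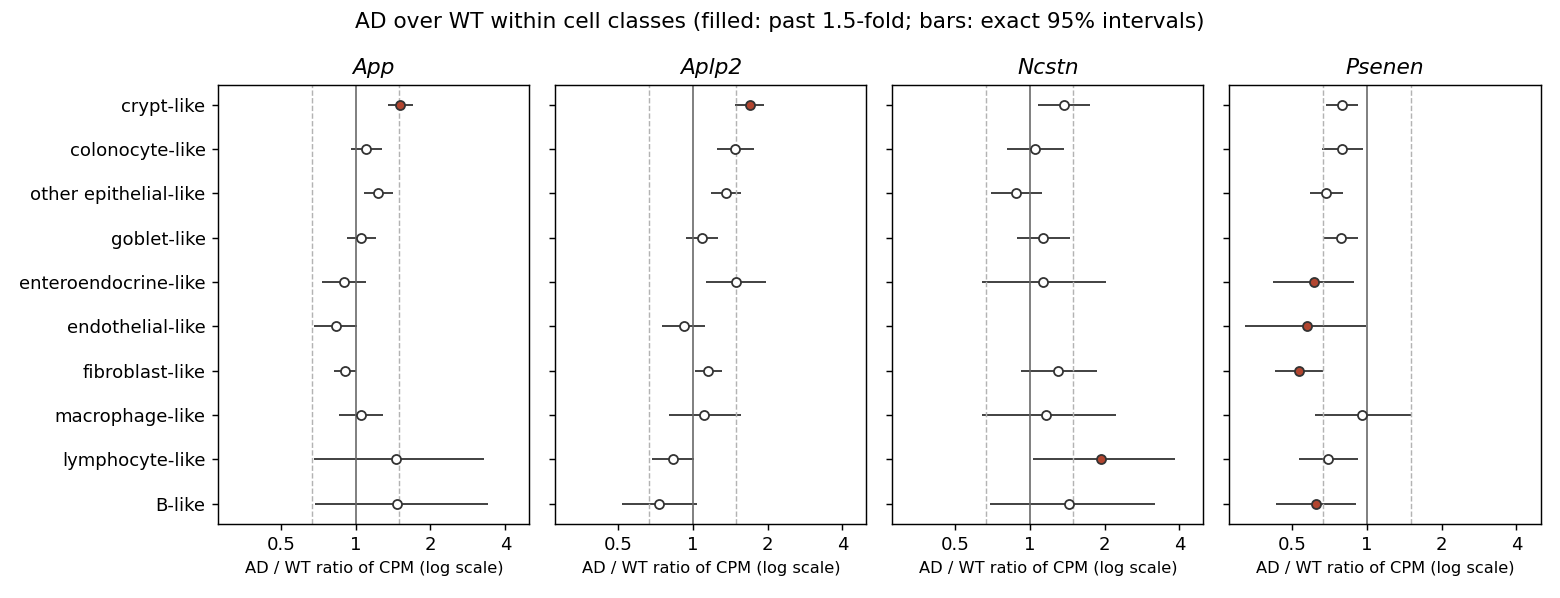
Ratio of AD over WT CPM (log scale) within each class for App, Aplp2, Ncstn and Psenen, with exact 95% intervals; filled points are past 1.5-fold (dashed lines) and a class under 30 UMIs has no point. Psenen lies left of 1 in all 10 classes, and Aplp2 right of 1 in all 5 epithelial-like classes.

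Adam10 (chr9:70678997-70780229, plus strand), the alpha-secretase gene, was present in each of the 10 compared classes. Endothelial-like cells, the highest of them, had 33 UMIs in AD, or 156 CPM (107 to 219), and 52 UMIs in WT, or 185 CPM (138 to 242). The other classes ran from 56.3 to 96.8 CPM in AD and from 65.6 to 118 CPM in WT. Lymphatic-endothelial-like cells, too few to compare, had 24 Adam10 UMIs in AD, or 335 CPM (215 to 498), and 34 in WT, or 850 CPM (589 to 1188). Colonocyte-like cells had 93.3 CPM in AD and 118 CPM in WT, a ratio of 0.79 (0.65 to 0.97). The epithelial-like cluster led by Myl7 and Aqp4 had 90.8 CPM in AD and 71.1 CPM in WT, a ratio of 1.28 (1.05 to 1.56). At the mitochondrial limit used here, Adam10 passed the size of 1.5-fold in none of the 10 classes. At a higher limit, given below, its ratio was 1.51 in the epithelial-like cluster led by Aqp4 and 0.66 in enteroendocrine-like cells. Over these profiles the genes most alike to it were Xiap (0.86), Gnb1 (0.82) and Clic1 (0.81), and those most alike to Psenen were Lars2 (0.76), Ndufs5 (0.74) and Gstp1 (0.73).

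Over all epithelial-like and all non-epithelial cells, the precursor and its enzymes were rarely caught in the same cell at equal depth. With each cell thinned to 1000 UMIs, App was seen in 17.1% of 1384 AD and 15.9% of 483 WT epithelial-like cells. App together with Adam10 was seen in 19 of these AD cells, or 1.37% (0.829 to 2.14), and in 1 WT cell, or 0.207% (0.00524 to 1.15). Outside the epithelium the order was the other way, with 29 AD cells, or 1.11% (0.744 to 1.59), and 27 WT cells, or 3.08% (2.04 to 4.44). Over all kept cells the pair was seen in 1.16% in AD and 2.04% in WT. Plasma-like cells were 27.6% of non-epithelial cells in AD and 4.52% in WT, and their part in these shares was not tested. App together with Bace1 or Bace2 was seen in 13 epithelial-like cells of each library, or 0.939% (0.501 to 1.60) in AD and 2.69% (1.44 to 4.56) in WT, and in 0.918% of AD and 1.37% of WT non-epithelial cells. App with Psen2, Ncstn, Aph1a or Psenen was seen in 3.25% of AD and 3.52% of WT epithelial-like cells. Outside the epithelium this was 2.72% in AD and 3.76% in WT. Among endothelial-like cells, 65 in AD and 76 in WT, it was 9.23% and 15.8%, and App with Adam10 was 7.69% and 10.5%. Cells with none of the 9 genes at this depth made up 48.4% of epithelial-like cells in AD and 55.3% in WT, and 57.5% of non-epithelial cells in AD and 50.5% in WT. B-like cells had App in 2.45% of 408 AD and 1.95% of 205 WT cells, and none with App and a beta-secretase gene. A cell without a UMI at this depth may still express the gene, so these shares do not count the cells that express both.

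Over all non-epithelial cells 4 of the 9 genes passed the size, all lower in AD, where 28.8% of 14086 genes were lower and 37.9% passed in either direction. App had 2259 UMIs in AD, or 169 CPM, and 1176 in WT, or 310 CPM, a ratio of 0.54 (0.51 to 0.58). The ratio was 0.57 for Aplp2, 0.53 for Bace1 and 0.61 for Adam10. The median over all genes tested was a log2 ratio of -0.32, and that over the 9 genes -0.48. Leaving mitochondrial, ribosomal protein, immunoglobulin and haemoglobin genes out of the total raised every log2 ratio there by 0.24, which left App and Bace1 past the size. Plasma-like cells, the antibody producers, held 51.5% of non-epithelial UMIs in AD and 11.1% in WT, from 810 and 44 cells, and App stood in them at 9.14 CPM in AD and 11.9 CPM in WT. With equal class makeup none of the 9 genes passed, and the App ratio was 0.94. Without plasma-like cells, 1 of the 9 genes passed, which was Psenen and not one of those 4. App, Aplp2 and Adam10 could be compared in all 5 non-epithelial classes that reached 50 cells in both libraries, and passed the size in none of them. Bace1 reached 30 UMIs in 1 of these classes, fibroblast-like cells, where it did not pass. In B-like cells its 5 AD and 11 WT UMIs gave a ratio of 0.26 (0.070 to 0.80), under the minimum of 30 UMIs for a call.

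**Figure D4:**
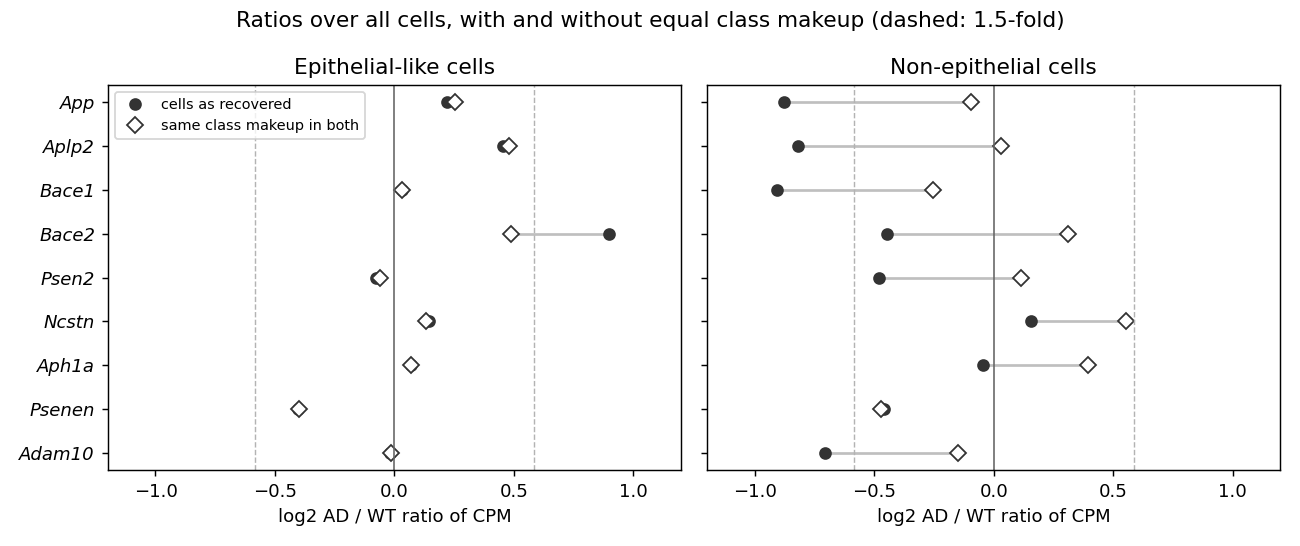
log2 ratio of AD over WT for each gene over all epithelial-like cells (left) and all non-epithelial cells (right), with cells as recovered (filled circles) and with the class makeup set equal (open diamonds); dashed lines mark 1.5-fold. Equal makeup moves App in non-epithelial cells from -0.88 to -0.10 and Bace2 in epithelial-like cells from 0.90 to 0.49, and leaves Psenen near -0.40 and -0.47.

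Other genes of the pathway, from 5 lists with 88 genes, were counted by the same size. Over all epithelial-like cells 12.9% of all genes tested were lower in AD, beside the 7.53% that were higher. Of 5 tested further core genes, 1 was lower there: Aplp1, the mainly neuronal relative of App, had 6.76 CPM in AD and 11.7 CPM in WT. Enteroendocrine-like cells held 96 of these 122 AD UMIs and 84 of these 100 WT UMIs. Within them Aplp1 was level, at 146 CPM in AD and 145 CPM in WT. They made up 3.65% of epithelial-like UMIs in AD and 6.78% in WT, and the part of this makeup was not tested. Of 10 tested partners of alpha-secretase, such as tetraspanins and rhomboid-like proteins, none passed over all epithelial-like cells. In the same cells 5 of 25 trafficking and adaptor genes passed, 1 higher and 4 lower, near the 20.4% of all genes that passed in either direction. The lower ones included Gga3, a sorting adaptor for Bace1, at 5.99 CPM in AD and 11.7 CPM in WT, and Rtn1, at 6.93 CPM in AD and 12.4 CPM in WT. Itm2b, whose product binds amyloid precursor protein, stood at 664 CPM in AD and 515 CPM in WT, under the size.

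Among enzymes listed as degrading amyloid beta, 1 of 7 was higher over epithelial-like cells, where 7.53% of all genes were. This was Ace, at 6.93 CPM in AD and 3.99 CPM in WT, while the insulin-degrading enzyme gene Ide stood at 67.2 CPM in AD and 47.9 CPM in WT. The median log2 ratio of this list was 0.36, against 0.02 for the core genes, 0.16 for the partners, -0.04 for the trafficking genes, 0.18 for the substrates and -0.05 for all genes. With 7 genes, that median is the value of 1 gene, Mep1a. Mep1a was level in colonocyte-like cells, at 346 CPM in AD and 358 CPM in WT. It was higher in AD in crypt-like cells, at 31.2 and 18.8 CPM, and in the cluster led by Myl7 and Aqp4, at 140 and 84.1 CPM. The part of class makeup in this median was not tested. Of 25 tested secretase substrates 2 were higher and 1 lower in epithelial-like cells, where 7.53% of all genes were higher and 12.9% lower. The higher substrates are thus near the share of all genes. Cd74, the invariant chain of antigen presentation, was among the higher, at 54.4 CPM in AD and 27.0 CPM in WT.

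Over non-epithelial cells, whose class makeup also differed, 2 of 6 further core genes, 2 of 10 partners and 2 of 7 degrading enzymes were lower in AD, and none of them was higher. Of all genes tested in these cells 28.8% were lower in AD and 9.1% were higher, and the lower genes of these lists are near the first share. Of 28 trafficking and adaptor genes 6 were lower, among them Apbb2, a cytoplasmic binding partner of amyloid precursor protein, at 27.3 CPM in AD and 70.7 CPM in WT, and Numb, a Notch antagonist, at 50.2 CPM in AD and 93.6 CPM in WT. Of 28 substrates 4 were higher and 11 lower, against the same shares of 9.1% and 28.8% over all genes. The endothelial cadherin gene Cdh5 stood at 15.8 CPM in AD and 79.4 CPM in WT, and endothelial-like cells held 1.58% of non-epithelial UMIs in AD and 7.42% in WT. Ace, higher in AD over epithelial-like cells, was among the lower degrading enzymes here, at 10.5 CPM in AD and 40.1 CPM in WT. Endothelial-like cells held 124 of its 140 AD UMIs and 148 of its 152 WT UMIs. Within them Ace stood at 585 CPM in AD and 526 CPM in WT, not past the size. Sdc1, which marks plasma cells, stood at 231 CPM in AD and 46.9 CPM in WT. The median log2 ratio ran from -0.42 for the trafficking genes and the substrates to -0.05 for the degrading enzymes, against -0.32 for all genes. The part of class makeup in these lists was not tested.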

How the data were processed

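For each of 2 libraries, 1 per genotype, the authors deposited a matrix of UMI counts, whole numbers without normalization. The tools named in the submitters' processing notes are Cell Ranger 3.0.1, STAR and Seurat 3.0.2, with mm10 as build. Barcodes were kept from 500 UMIs and 200 genes upward when mitochondrial UMIs made up 25% or less. Scrublet in scanpy 1.11.5, run per library, called 4 doublets in each library and so removed few. Both libraries were clustered together on 2000 variable genes, 30 principal components and 15 neighbours with Leiden clustering at resolution 1 (leidenalg 0.10.2). The pathway genes were kept out of the variable genes. Clusters were named from markers of 24 classes when at least 3 markers, and a share of 0.3 of them, stood 4-fold above other clusters (2-fold for crypt-like and colonocyte-like cells). Names were rebuilt here, not taken from the authors. The genes, lists and markers were chosen with earlier results of these data known.

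Counts were summed per library and class. A ratio has an interval conditional on the total count, and sums have Poisson intervals. For calls and log2 ratios, 0.5 counts were added to each sum. All 9 genes are given. Other genes named are, per list, up to 4 with the largest absolute log2 ratio among those with at least 100 UMIs. Equal makeup weights classes by their share of both libraries together. Depth was 38731915 UMIs in the AD library and 26898149 in the WT library. On simulated counts for the 2 libraries, 200 of 200 genes changed by known folds were recovered. Those folds are not given here, so recovery of a 1.5-fold difference near 30 UMIs within a class was not shown. Gene positions come from GENCODE M21, in which 31350 of the 33083 identifiers were found, and the annotation release behind the counts is not given in the sources used here. Alternatives numbered 33, with 6 more chosen after seeing the data.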

Additional observations from a re-analysis of the deposited data

Results flagged for a closer look

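Ratios of AD over WT pointed in opposite directions in 3 pairs of cell groups, with intervals on opposite sides of 1. App had a ratio of 1.17 over epithelial-like cells and 0.54 over non-epithelial cells. Aplp2 had 1.37 over epithelial-like and 0.57 over non-epithelial cells. With equal class makeup the non-epithelial ratios were 0.94 for App and 1.02 for Aplp2. Adam10 had 1.28 in the epithelial-like cluster led by Myl7 and Aqp4 and 0.79 in colonocyte-like cells. With 1 library per genotype these differences were not tested.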

How the results depend on the processing

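No paired analysis was possible because each genotype had 1 library. Over epithelial-like cells the count of genes past 1.5-fold, 1 in the report, was 0 with a mitochondrial limit of 10%, a fold of 2 or equal class makeup, and 2 (Aplp2 and Bace2) with a limit of 50% or none. At 10% no crypt-like or colonocyte-like cluster was named. Without goblet-like cells it was 1, Aplp2 in place of Bace2. Over non-epithelial cells the count, 4 in the report, was 2 (App and Bace1) with mitochondrial, ribosomal protein, immunoglobulin and haemoglobin genes left out of the total, 1 (Bace1) with the median gene ratio set to 1, 0 with a fold of 2 or equal makeup, and 1 (Psenen) without plasma-like cells. The Aplp2 log2 ratio there reversed to 0.0314 with equal makeup. The cause was not tested, apart from equal makeup, which changes the class weights alone. Other clustering resolutions, doublet settings and UMI minimums left both counts as they were, and the remaining settings gave 1 over epithelial-like and 4 to 6 over non-epithelial cells. The class with the highest level was the same in both libraries for 8 of the 9 genes, and for 6 or 7 under the alternatives. Because of counts under 30 UMIs, Bace2 could be compared in 4 of the 10 classes, Bace1 in 6, Psen2 and Aph1a in 7 each, and Ncstn in 9.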

Other observations

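Tuft-like cells, rare chemosensory epithelial cells, were too few at the 25% limit, with 2 AD and 12 WT cells. At a limit of 50% there were 29 AD cells with 53066 UMIs and 120 WT cells with 358134 UMIs. App had 6 UMIs in these AD cells, or 113 CPM (41.5 to 246), and 59 in the WT cells, or 165 CPM (125 to 213). Adam10 had 3 UMIs in AD and 42 in WT, or 117 CPM (84.5 to 159) in WT. Psenen had 2 UMIs in AD and 25 in WT. Bace2 had 1 UMI in each library, so its tuft-like level was at or under what 3 counts allow.

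An unnamed cluster led by Nos1, Nalf1 and Syt1 held 51 AD and 5 WT cells at a median depth of 724.5 UMIs. App had 32 UMIs in its AD cells, or 494 CPM, and 0 in its WT cells. Enteric-glia-like cells numbered 3 in AD and 36 in WT, and App had 91 UMIs in the WT cells, or 726 CPM.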
